A study of Homo sapiens with 4 samples.

Results

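The serpin family was examined in naive NB4 cells and in an arsenic trioxide (ATO) resistant line derived from them. NB4 is an established human acute promyelocytic leukemia (APL) line, and the resistant line, NB4-VM-AsR1, is a single in-house clone. The study's methods write the clone as NB4-EV-AsR1, and both names are taken here for the same clone. Both lines were grown in RPMI with FBS, and the resistant cells were kept out of ATO for a week before RNA was taken, so that no flask was under the drug at harvest. RNA of 2 flasks of each line was labelled with Cy3 and hybridized to 4 whole genome Agilent arrays, all on 1 slide, with the naive flasks in the first positions and the resistant flasks in the last, so that line and position cannot be told apart.

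Members were chosen by name: every probe whose gene name on the array was SERPIN, a clade letter from A to I and a number. This gave 35 genes with 48 probes, out of 18178 named genes on the array. The family was put forward for description with the differences between the naive and resistant flasks already known, SERPINF1 being among the largest, so the differences below are a description of these 4 arrays and no test is claimed for them. The rule by name leaves out angiotensinogen (AGT), a serpin by structure, and it takes in SERPINA13, which RefSeq now lists as the pseudogene SERPINA13P.

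Serpins share a fold in which a strained, exposed loop offers itself as bait to a protease. When an inhibitory serpin is cut, the loop snaps into the body of the protein and the protease is dragged along and locked in a distorted, inactive form, so that each molecule works once. The clades sort the family by descent: clade A holds mainly secreted plasma proteins such as the antitrypsins and hormone carriers, clade B the mostly intracellular serpins that protect cells from their own granule proteases, and clades C to I antithrombin, heparin cofactor II, protease nexin 1, PEDF and antiplasmin, C1 inhibitor, the collagen chaperone HSP47 and neuroserpin. Promyelocytes fill their azurophil granules with elastase, proteinase 3 and cathepsin G, all of them serpin targets.

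The array measured each gene with probes of 60 bases printed on the glass, and the probes of the 4 genes called higher in the resistant line are shown here because the values given for those genes below are the brightness of these probes. Coordinates are those of the files, on hg19. The SERPINF1 probe lies on chromosome 17 (chr17:1680668-1680727, plus strand), the SERPING1 probe on chromosome 11 (chr11:57373891-57373950, plus strand), the SERPINI1 probe on chromosome 3 (chr3:167508208-167508267, plus strand) and the SERPINB10 probe on chromosome 18 (chr18:61602351-61602410, plus strand). The probes of SERPINB1 (chr6:2833864-2833923, minus strand) and SERPINB7 (chr18:61471776-61471835, plus strand) are added because they share a short stretch of sequence with that of SERPINB10. Each is written 5′ to 3′, and capitals mark CANCCNTTC, in which N is any base.
SERPINF1: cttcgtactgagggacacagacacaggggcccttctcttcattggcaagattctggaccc
SERPING1: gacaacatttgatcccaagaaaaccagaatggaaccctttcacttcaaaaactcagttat
SERPINI1: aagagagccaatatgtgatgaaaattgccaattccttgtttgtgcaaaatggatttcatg
SERPINB10: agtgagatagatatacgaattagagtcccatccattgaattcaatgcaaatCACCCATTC
SERPINB1: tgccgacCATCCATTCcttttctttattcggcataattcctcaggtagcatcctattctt
SERPINB7: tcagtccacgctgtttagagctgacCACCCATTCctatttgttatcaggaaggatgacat

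The stretch CANCCNTTC, searched on the probe strand, was held by 3 of the 48 serpin probes (6.2%) and by 147 of the 41000 probes of the array (0.359%). It was set by hand for the search and not found by a scan of all stretches. Nothing is therefore read from the difference between these shares. The 3 probes belong to clade B genes and differ in their full sequences. The stretch begins at base 8 of the SERPINB1 probe, base 26 of the SERPINB7 probe and base 52 of the SERPINB10 probe. Some bases next to it are shared, as the SERPINB1 and SERPINB7 probes both have gac before it and ct after it. The SERPINB10 probe ends with the stretch. These 3 genes also differed in direction between the lines, as given below. The median GC content was 41.7% over the serpin probes and 41.7% over all probes.

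Values are given as log2 of the processed signal minus the 75th percentile of the same array, so that 0 stands for a signal at that percentile. A signal is called well above background where the scanner software set it apart from the local background of its spot. Probes bind with unequal strength, so a value is compared between flasks for one probe and amounts are not compared between genes. The marker sums given below add probes of several genes, so that the brightest probes weigh most in them. These are bulk cultures, in which fewer cells with a transcript and less of it per cell cannot be told apart.

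Of the 35 serpin genes, 11 were well above background on all 4 arrays, 9 on some of them and 15 on none. In clade A 3 of 11 genes were above background on all arrays and 7 on none. In clade B it was 4 of 13 on all arrays and 5 on none. The genes below background everywhere in clade A included SERPINA4 (kallistatin), SERPINA5 (protein C inhibitor), SERPINA7 (the thyroxine carrier of plasma), SERPINA10, SERPINA11, SERPINA12 (vaspin) and SERPINA13. In clade B they were SERPINB3 and SERPINB4, the near-identical squamous cell carcinoma antigens, SERPINB5 (maspin), SERPINB6, an intracellular inhibitor of cathepsin G, and SERPINB12. SERPIND1 (heparin cofactor II), SERPINE3 and SERPINI2 were below background as well. The SERPIND1 probe was printed on 10 spots of each array, and none of the 9 or 10 spots kept per array was well above background.

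**Figure D1:**
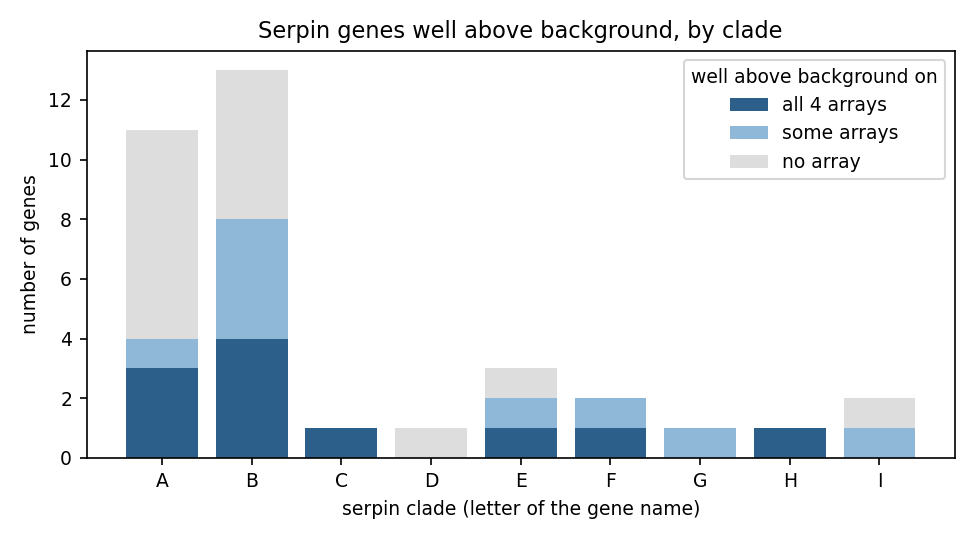
Number of serpin genes (vertical axis) in each clade (horizontal axis), split by the arrays on which at least 1 probe of the gene was well above background. Dark blue stands for all 4 arrays (11 genes), light blue for some (9) and grey for none (15), and most of the grey lies in clades A and B.

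A probe entered the fit if both flasks of 1 or the other line gave a signal well above background. That held for 18 serpin genes with 20 probes. It was called where limma, fitted over all 28221 tested probes, gave a Benjamini-Hochberg adjusted p under 0.05 and the difference was at least 2-fold. Over the whole array 5.27% of the probes and 6.29% of the genes were called, 2.95% of the genes higher and 3.34% lower in the resistant line. Among the 18 serpin genes 5 were called (27.8%). SERPINF1, SERPING1, SERPINI1 and SERPINB10 were higher and SERPINA1 was lower in the resistant flasks. Since the family was put forward on this same contrast, nothing is read from that share. The median difference of the 18 genes was -0.44, with 8 genes above 0 and 10 below, against a median of 0.003 over all 13830 genes tested. The flasks of the lines did not overlap for 16 of the 18 genes and for 57.9% of all genes tested. The count rested on the flasks: it was 10 without the first naive flask, 8 without the second, and 2 with the first or the second resistant flask left out (SERPINF1 and SERPING1 both times). With the normexp background correction (offset 50) it was 0, and with local backgrounds over 100 units reset before it, 2. With the methods' t-test, once its p-values were adjusted, the count was also 0. Where 1 flask was left out, the spread in the fit came from the 2 flasks of the other line alone. Calls gained or lost that way depend on the spread of that pair.

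**Figure D2:**
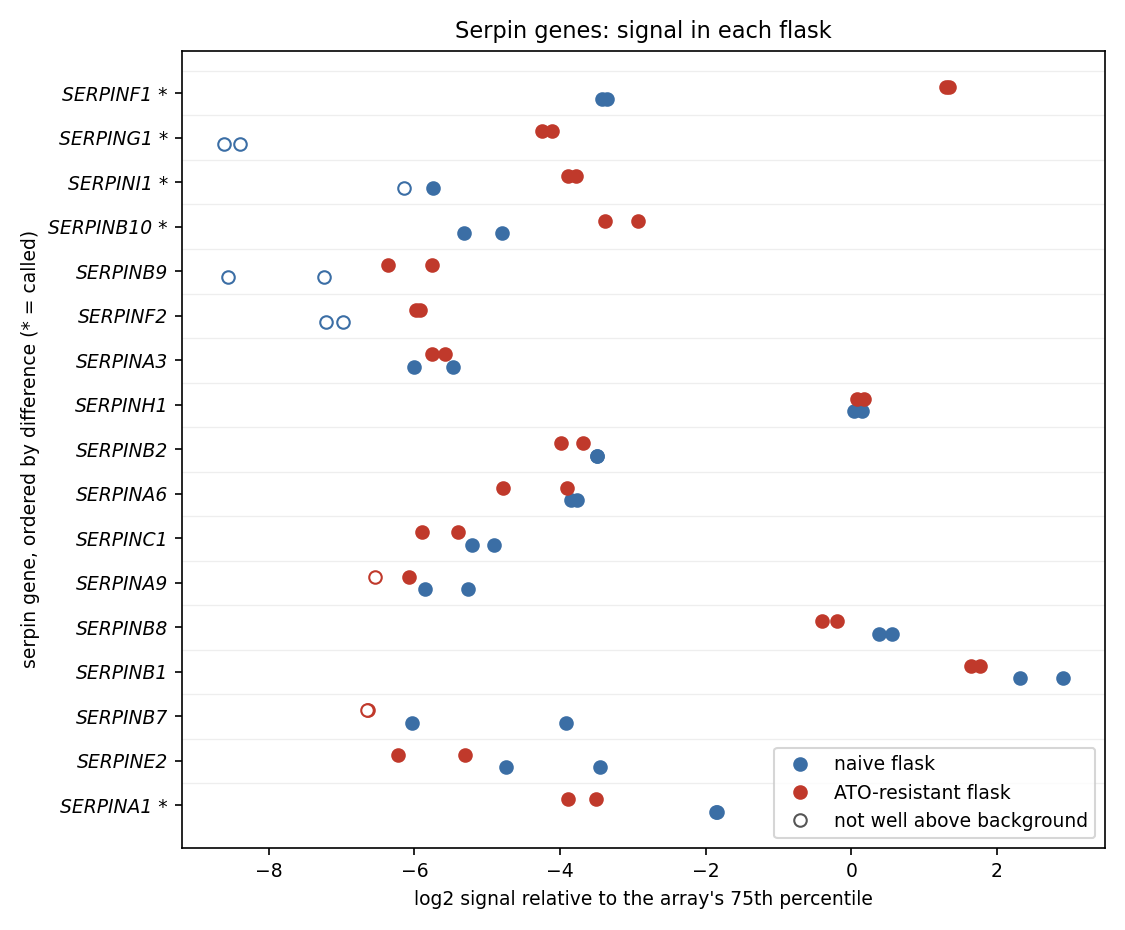
Signal of 17 of the 18 tested serpin genes in each flask, as log2 relative to the 75th percentile of the array (horizontal axis), with the genes ordered by the difference between the lines (vertical axis). Each point is 1 flask, open points were not well above background and an asterisk marks the 5 called genes. The red and blue points of SERPINF1 lie 4.71 apart, while those of SERPINH1 lie on top of each other.

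SERPINF1 encodes PEDF, a secreted serpin that inhibits no known protease and is known for its action against vessel growth. Its signal was -3.43 and -3.35 in the naive flasks and 1.34 and 1.31 in the resistant flasks. Both naive flasks were clearly low and both resistant flasks high, and the flasks of each line were close together (SD 0.052 and 0.026, n = 2 each). The difference was 4.71 ± 0.22 (SE) on the log2 scale, or 26.3-fold. In raw brightness the spot went from 100 and 88 units to 2660 and 2084. The call was lost under normexp with an offset of 50, where the difference was 3.59, and with the methods' t-test, and was kept under the other 15 of 17 alternatives.

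SERPINF2, or antiplasmin, the main plasma inhibitor of plasmin, is the neighbour of SERPINF1, their probes lying 23.0 kb apart. Its probe was not well above background in either naive flask (-6.98 and -7.21) and was above it in both resistant flasks (-5.98 and -5.92). The resistant flasks were the higher ones, by 1.15 ± 0.23 (SE). Against a dim group only a lower bound can be given, in which each naive array counts at its detection limit (the dimmest probe still set apart from background there) or at the probe's own signal if that was brighter. For SERPINF2 the bound was at least 1.24-fold, and the gene was not called. The difference was 1.27 without the first naive flask and 1.03 without the second. So both clade F genes were higher in the resistant flasks, and 1 of them passed the threshold.

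SERPING1 encodes C1 inhibitor, the plasma serpin that blocks C1r and C1s of complement and the contact proteases kallikrein and factor XII. Its probe read -8.61 and -8.40 in the naive flasks, not well above background in either, and -4.25 and -4.11 in the resistant flasks. The probe was thus set apart from background on the resistant arrays alone, which made the gene at least 4.22-fold higher there. The measured difference was 4.32 ± 0.23 (SE), which leans on 2 naive spots at 2.76 and 2.66 units of brightness. Normexp with an offset of 50, which lifts dim spots, brought the difference to 0.76 and the call was lost, as it was with local backgrounds reset (0.84) and with the methods' t-test. A probe with no gene name, A_24_P561165, lies 7.92 kb from it. It read -5.71 and -8.47 in the naive flasks and -2.74 and -2.81 in the resistant flasks, a difference of 4.32 ± 0.88 (SE) that was not called.

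SERPINI1 encodes neuroserpin, an inhibitor of tissue plasminogen activator best known from neurons. It read -5.75 and -6.14 in the naive flasks, the second not well above background, and -3.89 and -3.77 in the resistant flasks. Both resistant flasks were higher, by 2.11 ± 0.25 (SE) or 4.33-fold. The call was lost without the first resistant flask (2.17), without the second (2.06), under both forms of normexp (0.80 and 0.82) and with the methods' t-test.

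SERPINB10, bomapin, is a clade B serpin described in blood-forming and leukemic myeloid cells, where it is found in the nucleus. It read -4.80 and -5.32 in the naive flasks and -2.93 and -3.38 in the resistant flasks. All 4 spots were above background and the resistant flasks were the higher ones, by 1.91 ± 0.30 (SE) or 3.75-fold. This was the call that the fewest alternatives kept (10 of 17): it was lost under both forms of normexp, under quantile normalization, with no filter on dim probes, with the methods' t-test, without the first resistant flask (1.68) and without the second (2.13).

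SERPINA1 encodes alpha-1 antitrypsin, the main plasma inhibitor of neutrophil elastase, which myeloid cells also make. It read -1.84 and -1.86 in the naive flasks and -3.50 and -3.90 in the resistant flasks. Here the naive flasks were the higher ones and nearly equal, and the resistant line was lower by 3.59-fold (log2 difference -1.85 ± 0.25, SE). Without the first resistant flask the difference was -2.04 and without the second -1.65, and in both cases the call was lost. It was also lost under normexp with an offset of 50 (-0.75) and with the methods' t-test.

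SERPINB1, which inhibits elastase, proteinase 3 and cathepsin G in the cytosol of neutrophils and monocytes, read 2.91 and 2.32 in the naive flasks and 1.64 and 1.77 in the resistant flasks. The naive flasks were higher on both of its probes (log2 differences -0.91 ± 0.28 and -0.80 ± 0.22, SE), short of 2-fold and not called. Without the second naive flask the first of these was -1.20, and without the first naive flask -0.62.

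SERPINB8, an intracellular inhibitor of furin and of trypsin-like proteases, read 0.38 and 0.56 in the naive flasks and -0.39 and -0.19 in the resistant flasks. Its probes differed by -0.76 ± 0.23 and -0.98 ± 0.24 (SE), the naive flasks being the higher on both, and neither was called.

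SERPINB9 is the inhibitor of granzyme B. The brightest of its 3 probes read -8.56 and -7.24 in the naive flasks, not well above background, and -5.75 and -6.36 in the resistant flasks. The difference of 1.84 ± 0.50 (SE) was at least 1.15-fold as a bound and not called, though it was called under scale normalization. The difference was 1.18 without the first naive flask and 2.50 without the second. Its other 2 probes were below background on all 4 arrays, so the gene rests on 1 dim probe.

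SERPINB7, megsin, showed how far the naive flasks could part. It read -6.04 in the first and -3.92 in the second, and -6.63 and -6.66 in the resistant flasks, where it was not well above background. The naive mean was at least 2.81-fold above the resistant bound, yet the naive flasks themselves differed by 2.11 on the log2 scale, and the gene was not called. Without the first naive flask the difference was -2.72, and without the second -0.61.

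SERPINB2, an inhibitor of urokinase made by monocytes, read -3.49 in both naive flasks and -3.69 and -3.98 in the resistant flasks on 1 probe, a difference of -0.34 ± 0.23 (SE). Its other probe was below background on all arrays. SERPINB11 was above background on 1 array of each line, and SERPINB13 on 1 resistant array, so neither was tested.

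In clade E, SERPINE2, protease nexin 1, which inhibits thrombin and urokinase at cell surfaces, had the lower values in the resistant line. It read -4.74 and -3.45 in the naive flasks and -6.23 and -5.31 in the resistant flasks. The difference of -1.67 ± 0.53 (SE), or 3.18-fold, was larger than 2-fold and not called, since the flasks of each line were spread widely (SD 0.91 and 0.65, n = 2 each). It passed the threshold with the replicate number as a block. The difference was -2.31 without the first naive flask and -1.03 without the second.

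The remaining tested members of clades A, C and H lay closer together. SERPINA9, centerin of germinal centre B cells, SERPINA6, the cortisol carrier of plasma, and SERPINC1, antithrombin, were lower in the resistant flasks. The log2 differences were -0.75 ± 0.32, -0.54 ± 0.35 and -0.59 ± 0.28 (SE) in that order. SERPINA9 was not well above background in the first resistant flask. SERPINA6 rested on the second resistant flask, without which it differed by -0.10. None of these genes was called. SERPINA9 differed by -1.05 without the first naive flask and by -0.46 without the second. SERPINA3, antichymotrypsin, differed by 0.07 ± 0.28 (SE), with overlapping flasks. SERPINH1, the collagen chaperone HSP47 of the endoplasmic reticulum, read 0.15 and 0.04 in the naive flasks and 0.17 and 0.08 in the resistant flasks. Its lines overlapped, and the difference was 0.03 ± 0.22 (SE).

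The 2 naive flasks differed more from each other than the 2 resistant flasks, in serpins as on the whole array. The SD of the difference between flasks was 0.660 over the 20 tested serpin probes in the naive line and 0.407 in the resistant line, against 0.713 and 0.371 over all probes tested. A difference of at least 2-fold between naive flasks was seen for 3 serpin probes, those of SERPINB7, SERPINB9 and SERPINE2, and for 13.2% of all probes. The SERPINB9 probe was not well above background in either naive flask. Between resistant flasks there was none among the serpins and 2.04% among all probes.

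Position is a property that the choice by name did not use. Probe positions were given for 29 of the 35 genes, and 24 of these lie in 4 clusters, in which neighbouring serpin probes are within 500 kb of each other. The cluster on chromosome 14 (chr14:94750192-95113041) holds 9 clade A genes, of which 3 were tested: SERPINA1 and SERPINA6 were on the lower side in the resistant flasks and SERPINA3 on neither. The cluster on chromosome 18 (chr18:61160248-61654596) holds 10 clade B genes, of which 4 were tested, 1 higher and 3 lower. There SERPINB10 differed by 1.91 and its neighbours SERPINB2, SERPINB7 and SERPINB8 by -0.34, -1.66 and -0.76. In the cluster on chromosome 6 (chr6:2832656-2949271) SERPINB1 and SERPINB9 lay on opposite sides of 0, and SERPINB6 was below background. Only on chromosome 17 (chr17:1657718-1680727) were both members on the same side.

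**Figure D3:**
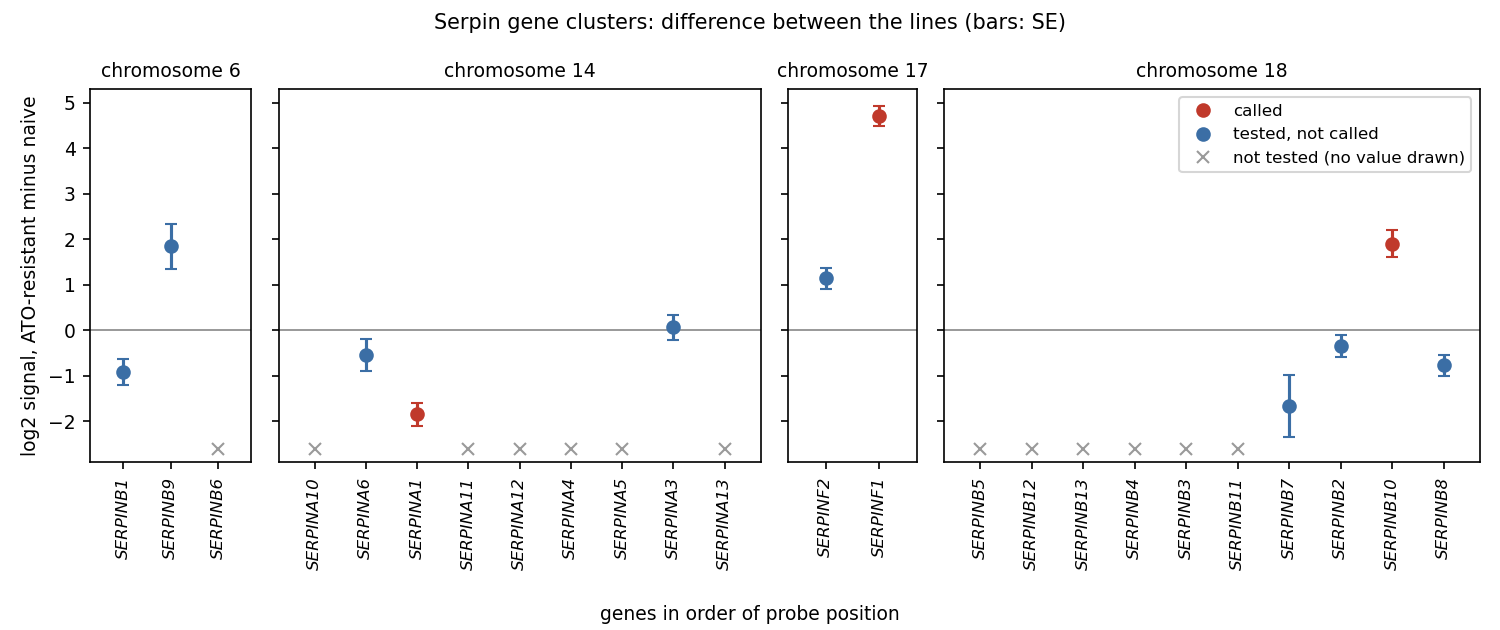
Difference between the lines for the serpin genes of the 4 clusters, as log2 signal of the resistant minus the naive flasks (vertical axis), with the genes in order of probe position on each chromosome (horizontal axis). Bars are the SE of limma, red points were called, blue points were tested and not called, and crosses at the foot mark genes that were not tested. Both genes on chromosome 17 lie above 0, while the other clusters hold genes on either side.

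Probes around the called genes were read beside the whole array, on which 5.27% of the probes were called. Within 500 kb of SERPINF1 there were 33 tested probes of other genes, with a median difference of 0.16, and 1 was called: SLC43A2, an amino acid transporter whose probe is 203 kb away, which read -2.41 and -2.89 in the naive flasks and -0.12 and 0.12 in the resistant flasks. Around SERPING1 there were 26 tested probes with a median of -0.23, and the 1 called, a probe of SLC43A3, was lower (-1.38 ± 0.25, SE). None of the 16 tested probes near SERPINA1 was called (median -0.41), nor any of 4 near SERPINB10 and 2 near SERPINI1.

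The proteases that serpins act on, with related proteins such as AZU1, HGF and F3, were read from a list of 65 gene names. Of these 45 were tested. Among the tested genes 6 were called (13.3%, beside 6.29% of all genes), 4 higher and 2 lower in the resistant line, and the median difference was -0.14. This list and the 2 that follow were chosen with earlier results of these data known, so nothing is read from their shares. The count was 15 without the first naive flask, 11 without the second, and 3 with either resistant flask left out, when ELANE, AZU1 and GZMH lost their calls. The azurophil granule genes on the list were ELANE, AZU1, PRTN3 and CTSG, of which the first and second were called higher and the others were not called. ELANE, neutrophil elastase, read -5.74 and -6.56 in the naive flasks, above background in 1 of them, and -3.66 in both resistant flasks, and was called (2.49 ± 0.33, SE). AZU1, azurocidin, which lacks protease activity, was called at 1.17 ± 0.21 (SE). PRTN3, proteinase 3, a target of SERPINA1 and SERPINB1, read 3.16 and 0.80 in the naive flasks and 4.43 and 4.32 in the resistant flasks, and CTSG, cathepsin G, 5.68 and 4.89 against 5.89 and 6.25. The naive flasks of PRTN3 were far apart, the CTSG spots were saturated on both resistant arrays, and neither gene was called.

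The other called members of the list went both ways. F2, prothrombin, the target of antithrombin and protease nexin 1, was not well above background in either naive flask (-6.61 and -7.31) and read -2.39 and -2.29 in the resistant flasks. That is at least 15.1-fold, and the gene was called. HGF, a growth factor with the fold of a protease, read -0.01 and -0.61 in the naive flasks and -4.05 and -4.37 in the resistant flasks. It was called lower on all 3 of its probes, which differed in size. The log2 difference was -3.91 on the brightest probe and -6.73 as the mean over the 3. GZMH, granzyme H, was called higher (2.00 ± 0.23, SE), and CTSL2, a cathepsin of the cysteine class, lower by at least 3.64-fold. PLAU, urokinase, differed by -0.095 ± 0.25 (SE) and was not called.

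Cofactors, receptors and clients of serpins made up a list of 53 gene names, of which 42 were tested. Among the tested genes 7 were called (16.7%, beside 6.29% of all genes), 3 higher and 4 lower, with a median difference of 0.03. The count was 11 and 13 without the first and the second naive flask, and 4 and 5 without the first and the second resistant flask. PLXDC1, described as a receptor for PEDF, was not well above background in the naive flasks (-8.65 and -7.77) and read -5.04 and -4.93 in the resistant flasks, at least 2.41-fold and called. LRP6, a Wnt co-receptor also described to bind PEDF, went the other way, from -3.20 and -2.95 to -6.36 and -5.73 (-2.97 on the log2 scale). Only 1 of the resistant flasks was well above background on this probe. Both of its probes were called lower but differed in size, the mean over them being -5.30. S100A10, which gathers plasminogen at the cell surface with annexin A2, was called lower (-2.21 ± 0.35, SE), a call lost with either resistant flask left out. PLAUR, the urokinase receptor, differed by -1.16 and ANXA2 by -2.01 on the log2 scale, and neither was called.

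Among collagen genes and collagen chaperones listed beside SERPINH1, whose own signal differed by 0.03, calls went in both directions. COL6A1 was lower (-3.17 ± 0.29, SE), COL9A2 was higher (1.68 ± 0.29, SE) and FKBP10, a chaperone of collagen, was higher by at least 1.25-fold. The call of COL9A2 was lost with either resistant flask left out, and that of FKBP10 without the first. CKAP4, a membrane protein of the endoplasmic reticulum on the same list, was lower by at least 8.51-fold.

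Protease inhibitors of other families were listed as 46 genes, of which 29 were tested and 3 called (10.3%, beside 6.29% of all genes), with a median difference of -0.07. The count was 5 and 8 without the first and the second naive flask, 1 without the first resistant flask and 0 without the second, and SLPI, SPINT1 and WFDC1 lost their calls in both of the latter. SLPI, a secreted inhibitor of elastase and cathepsin G, read 0.89 and -0.51 in the naive flasks and 3.15 and 3.46 in the resistant flasks. Both resistant flasks were higher, by 3.12 ± 0.49 (SE) or 8.68-fold, and both of its probes were called. SPINT1, an inhibitor of the HGF activator, was called lower (-1.95 ± 0.31, SE), and WFDC1 lower by at least 2.33-fold. CSTA, the cystatin of granulocyte cytosol, differed by 0.88 and TIMP2, an inhibitor of metalloproteinases, by 1.42, with the resistant flasks higher and neither called. PI3, elafin, another elastase inhibitor, differed by -0.46 ± 0.22 (SE) and was not called.

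**Figure D4:**
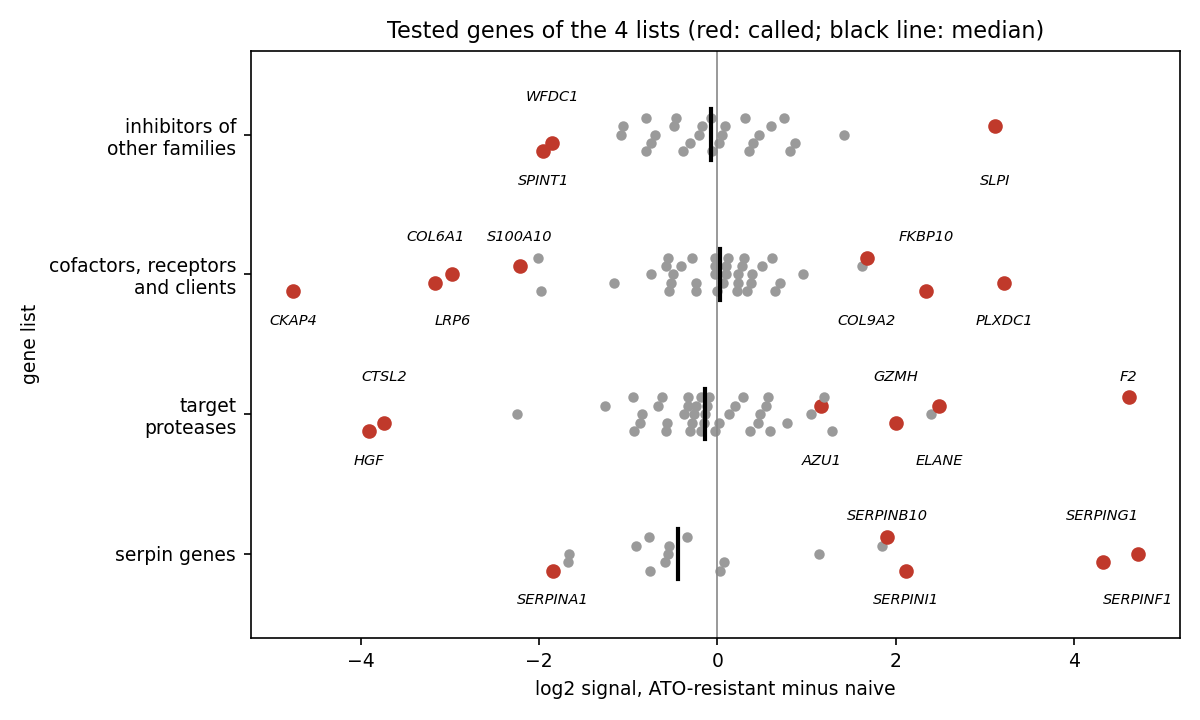
Difference between the lines for each tested gene of the 4 lists (vertical axis), as log2 signal of the resistant minus the naive flasks (horizontal axis). Red points with names were called, grey points were not and the black line is the median of the list. All 4 medians lie between -0.44 and 0.03, and each list has called genes on both sides of 0.

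Several serpins are best known as liver products, and the cultures were read for markers of other cells. Of 10 promyelocyte markers 9 were well above background on all arrays. The summed signal of the 10, in units of the 75th percentile, was 129 to 149 in the naive flasks and 165 to 196 in the resistant flasks. MPO and CTSG made up most of it. The CTSG spots were saturated on both resistant arrays. MPO was brighter than CTSG on all 4 arrays, so its signal may have been held down by saturation in both lines. These sums are therefore not compared between the lines, and those of the naive flasks may be too low as well. Of 10 hepatocyte markers 3 were above background on all arrays, with a sum of 0.340 and 0.558 in the naive flasks and 2.19 and 2.83 in the resistant flasks. APOA1, APOA2, APOH, FGB, TTR and CYP3A4 were below background on all 4 arrays, and ALB was above it on 1 naive and both resistant arrays. The rise in the sum was mostly that of HP, haptoglobin, which was called. Monocyte and macrophage markers summed to 3.54 and 3.89 against 7.28 and 8.18, with CD163 and FCGR3A below background on all arrays. Most of that sum was CSF1R, which read 1.47 and 1.68 in the naive flasks and 2.70 and 2.90 in the resistant flasks and was not called, while MARCO was called higher. Epithelium markers summed to 7.70 and 10.6 against 4.07 and 4.52, with KRT18 called lower, and T and B lymphocyte markers to 3.46 and 3.83 against 1.78 and 1.90, with CD3D called lower. Of 12 fibroblast and stroma markers, 7 were above background on no array, and the sum was 1.25 and 1.37 against 0.937 and 0.877. The part of these markers in the serpin differences was not tested.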

How the data were processed

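RNA of 4 cultures, 2 per line, was hybridized to 1-colour Agilent 4x44k arrays. The authors deposited the Feature Extraction (version 10.5.1.1 in the file headers) output, whose processed signal is a background-subtracted intensity, and log2 values after a shift of every array to its 75th percentile. Intensities were logged, outlier and control spots left out, spots of a probe averaged and the 75th percentile subtracted. Pearson's r with the deposited log2 values was at least 0.9998 across probes. Lines were compared with limma 3.58.1 in R 4.3.3 (lmFit, eBayes, Benjamini-Hochberg adjustment over all tested probes). Where a gene had several probes, the brightest on average stood for it. Between 27922 and 28244 probes per array were well above background, arrays have no read depth and their number limits the precision. With 2 flasks per line, an exact permutation test of 1 probe cannot go below p = 0.333.

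Of 48 serpin probes 46 matched a RefSeq symbol (GRCh38.p14). Genes named were those called, those above background in 1 line only, those with a 2-fold difference and the brightest members. Members and lists were chosen with earlier results of these data known. The alternatives were other background corrections, normalizations, filters on dim probes, the deposited table, an intensity trend, the methods' t-test, a fold threshold alone, the replicate number as a block, the mean over a gene's probes and leaving out each flask. Protein sequences were not analysed here, and 1 tested serpin gene, included in all counts, is not reported here.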

Additional observations from a re-analysis of the deposited data

How the results depend on the processing

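The number of serpin genes called was 5, and it was 4 to 6 under scale and quantile normalization, no filter on dim probes, the deposited log2 table, a median shift, an intensity trend, the mean over a gene's probes and the replicate number as a block. Under normexp with an offset of 50 it was 0 (2 at an unadjusted p under 0.05), as was the count of serpin probes (main 5), of target proteases (main 6), of cofactors, receptors and clients (main 7), of other inhibitors (main 3) and of all probes (main 1487, and 929 at an unadjusted p under 0.05). The median serpin difference was then 0.21, and the median of all probes moved by 0.149 (by 0.103 under scale normalization). Normexp with high local backgrounds reset left 2 serpin genes, 2 serpin probes and 3 target proteases. With only probes above background on all 4 arrays, 3 serpin genes, 3 serpin probes, 2 target proteases, 3 cofactors and 760 of all probes were called. The methods' t-test, after adjustment, called 0 in each list and 0 on the array (7 serpin genes and 4158 probes at an unadjusted p under 0.05). A 2-fold difference alone took 9 serpin genes, 9 serpin probes, 12 target proteases, 11 cofactors, 6 other inhibitors and 3463 probes. For other inhibitors the count was 1 with no filter on dim probes and 5 with an intensity trend.

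Leaving out 1 flask gave 2 to 10 serpin genes, 2 to 11 serpin probes, 3 to 15 target proteases, 4 to 13 cofactors, 0 to 8 other inhibitors and 728 to 4538 probes on the array, with the low counts coming without a resistant flask. With 1 flask left out, the spread in the fit came from the 2 flasks of the other line alone. The SD of the difference between flasks was 0.713 in the naive line and 0.371 in the resistant line. These counts therefore depend on which line kept both flasks. Under normexp with an offset of 50 and no reset the sign turned for SERPINA6 (0.067), SERPINA9 (0.21), SERPINB2 (0.074), SERPINC1 (0.21) and WFDC1 (0.10), of which only WFDC1 had been called. With local backgrounds reset these 5 kept their signs. Leaving out 1 flask moved SERPINA3 between -0.20 and 0.34 and SERPINH1 between -0.026 and 0.086, neither of them called.

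The replicate numbers share only a number in the labels. With them as a block 6 serpin genes, 6 serpin probes and 1375 probes were called, SERPINE2 being the serpin gained. Across the tested probes, deviations from the line mean correlated at 0.119 between the first naive and the first resistant flask. With 2 flasks per line the second flasks mirror the first and add nothing to this value. Signal over background limited the dim genes: for those not well above background in either flask of a line, the measured difference depends on values near background and the bound is the value to read.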
